A study of Mus musculus with 24 samples.

Results

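Aqp7, Gfra1, Prkcb and Cldn1 are 4 of the 19938 genes read on Affymetrix Mouse Gene ST arrays, here in pharyngeal tissue of mouse embryos that had lost *Tbx1* in the anterior heart field (AHF). They were chosen by their change between *Tbx1 LOF* (loss of function) arrays and the controls of that experiment, where they stood out most besides *Tbx1* itself and *Nrg1*. Their values in that experiment therefore describe the choice and support nothing. The group means of the rescue and *β-cat LOF* experiments took no part in the choice, and the tests below compare those means. The spread of their arrays did enter it, because the fit behind the choice estimates each gene's spread from all 24 arrays. Standard errors, intervals and p-values from that fit use the same spread in rescue and *β-cat LOF*. The exact permutation tests use only the arrays compared. Each of the 4 genes had 1 probe set. All values are log2 intensities, and a change is the mutant mean minus the mean of its own controls on that scale.

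The tissue was AHF microdissected from embryos at E9.5 with 19 to 21 somite pairs, and each group had 4 arrays of pooled embryos, 24 arrays in all. *Tbx1 LOF* embryos were Mef2c-AHF-Cre/+;Tbx1 f/- or Mef2c-AHF-Cre/+;Tbx1 f/f, and *β-cat LOF* embryos were Mef2c-AHF-Cre/+;β-catenin f/f. Rescue embryos were *Tbx1 LOF* embryos that also carried a single floxed β-catenin allele, a design made to ask whether *Tbx1* and canonical Wnt signalling oppose each other. Controls carried the floxed alleles without Cre according to the methods (Tbx1 f/+, β-catenin f/+, and both in the rescue experiment), whereas the labels speak of littermates that were wild type or carried Cre with a heterozygous floxed allele, and which of these were used stays unsettled. Mef2c-AHF-Cre acts in AHF mesoderm, while the dissected arches also hold endoderm, ectoderm and neural crest. The mice of the *Tbx1* line were congenic in Swiss Webster and the β-catenin floxed lines were of a mixed C57Bl/6 and Swiss Webster background. The doubly floxed females of the rescue crosses were kept as an inbred line. To exclude a strain effect, part of the *Tbx1 LOF* and rescue embryos came as littermates from Tbx1 f/+;β-catenin f/+ females. The methods do not say which crosses supplied the arrays, so the strain may also have differed between experiments. In such bulk tissue, fewer cells of a type and less RNA per cell cannot be told apart.

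The 4 genes belong to different families. Aqp7 encodes an aquaglyceroporin, a membrane channel that passes glycerol as well as water and is best known from fat cells. Gfra1 encodes the GPI-anchored co-receptor that binds the ligand GDNF and presents it to the receptor tyrosine kinase Ret, a pathway known for enteric neurons and the ureteric bud. Prkcb encodes a conventional protein kinase C, which calcium and diacylglycerol activate downstream of phospholipase C. Cldn1 encodes a claudin, a membrane protein that seals tight junctions between epithelial cells. *Tbx1* itself encodes a T-box transcription factor of the pharyngeal apparatus, and β-catenin is the co-activator through which canonical Wnt signals reach TCF/LEF factors.

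The promoters are shown because all 4 genes were selected with the loss of a T-box factor, and they are the windows in which T-box and TCF/LEF motifs were sought. The sequences are from RefSeq on GRCm38.p6, from 250 bases before to 50 bases after the annotated start, 5′ to 3′ on the gene's strand. Aqp7 lies at chr4:41033074-41048237, and its promoter at chr4:41048087-41048386 (minus strand). Gfra1 lies at chr19:58235581-58455946, with the promoter at chr19:58455349-58455648 (minus strand). Prkcb lies at chr7:122289104-122634402, with the promoter at chr7:122288875-122289174 (plus strand). Cldn1 lies at chr16:26356645-26371839, with the promoter at chr16:26371790-26372089 (minus strand). Capitals mark the only match.
Aqp7 promoter: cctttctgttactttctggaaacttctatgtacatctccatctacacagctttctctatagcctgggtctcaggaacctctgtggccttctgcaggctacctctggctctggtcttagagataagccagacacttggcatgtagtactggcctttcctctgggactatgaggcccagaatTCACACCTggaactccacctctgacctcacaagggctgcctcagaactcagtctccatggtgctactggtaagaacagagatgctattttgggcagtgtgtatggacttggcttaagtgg
Gfra1 promoter: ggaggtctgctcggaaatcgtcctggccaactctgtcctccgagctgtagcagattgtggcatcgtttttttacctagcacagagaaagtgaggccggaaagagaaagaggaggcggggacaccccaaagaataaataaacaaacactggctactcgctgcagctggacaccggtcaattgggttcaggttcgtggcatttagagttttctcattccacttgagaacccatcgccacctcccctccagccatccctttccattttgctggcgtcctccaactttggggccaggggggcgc
Prkcb promoter: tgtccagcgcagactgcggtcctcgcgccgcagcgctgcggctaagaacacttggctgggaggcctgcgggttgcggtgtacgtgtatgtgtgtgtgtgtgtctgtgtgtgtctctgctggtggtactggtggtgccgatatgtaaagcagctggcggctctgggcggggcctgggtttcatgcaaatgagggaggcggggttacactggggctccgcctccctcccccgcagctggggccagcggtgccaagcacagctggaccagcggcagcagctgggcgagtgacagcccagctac
Cldn1 promoter: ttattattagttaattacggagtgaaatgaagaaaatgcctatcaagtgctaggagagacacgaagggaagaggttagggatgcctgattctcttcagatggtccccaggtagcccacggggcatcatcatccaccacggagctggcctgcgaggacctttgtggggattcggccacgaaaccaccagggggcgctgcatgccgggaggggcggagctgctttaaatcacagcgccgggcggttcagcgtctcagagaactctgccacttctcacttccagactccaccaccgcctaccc

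The motifs sought on both strands were the T-box site AGGTGTGA, its core GGTGTG, which lies within it, and the TCF/LEF core CTTTGA. The Aqp7 promoter held TCACACCT, the T-box site read on the opposite strand, from 70 to 63 bases before the start. A second annotated Aqp7 start, whose window is chr4:41047913-41048212, has the same bases at 244 to 237 before it. The T-box site occurred in 1.28% of 32851 promoters of this length, its core in 19.1% and the TCF/LEF core in 16% of them. None of the 3 motifs occurred in the windows of Gfra1, Prkcb and Cldn1. A match or its absence describes these letters only. The GC content was 49.7% for the Aqp7 window, 54% for Gfra1, 65.3% for Prkcb and 56% for Cldn1, beside a median of 52.7% over all promoters.

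The level of *Tbx1* itself came first as a check of the labels. *Tbx1* read 10.98, 11.28, 11.43 and 11.40 in *Tbx1 LOF* arrays, against 11.91, 11.77, 11.98 and 11.99 in their controls. In rescue arrays it read 11.39, 11.49, 11.51 and 11.49, against 11.83, 11.95, 11.75 and 11.58 in rescue controls. Every *Tbx1 LOF* array and every rescue array lay below all of its own controls. The change was -0.64 ± 0.09 (SE) in *Tbx1 LOF* and -0.31 ± 0.09 in rescue, so rescue kept 47.9% of it (95% interval 17.1% to 88.4%). In *β-cat LOF* arrays *Tbx1* averaged 11.81, against 11.74 in their controls. No source used here says whether the probe set reads the floxed part of the gene. *Tbx1* is also expressed in pharyngeal endoderm, where this Cre is not active, and the part of that tissue in the signal was not tested.

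**Figure D1:**
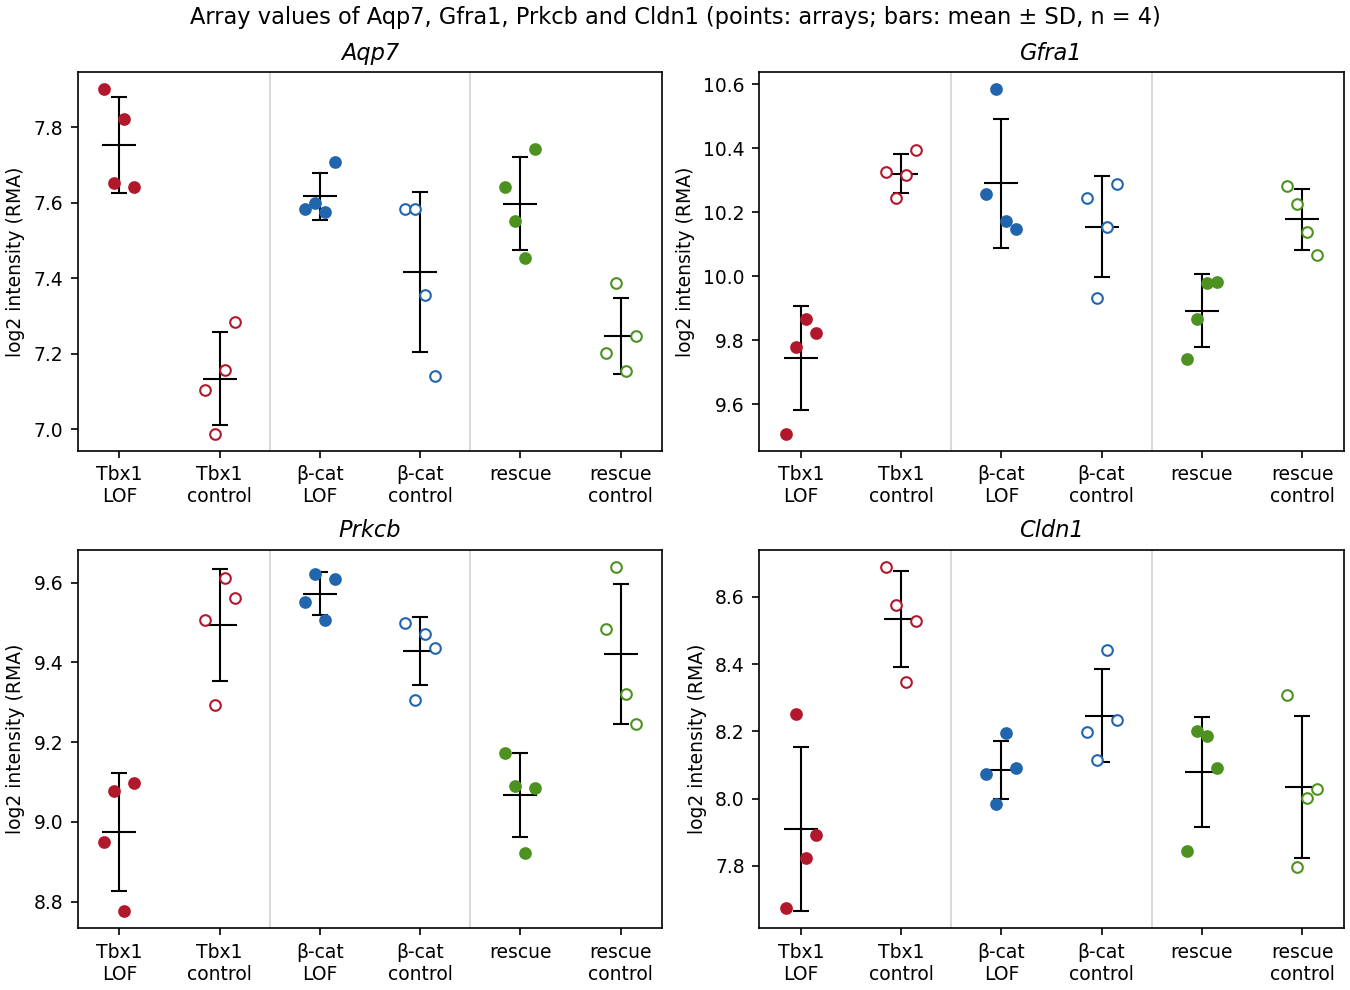
Log2 intensity (y axis) of Aqp7, Gfra1, Prkcb and Cldn1 in each of the 24 arrays, with mutant arrays as filled points left of their controls as open points, and the mean ± SD of the 4 arrays as bars. In rescue, Aqp7 lies above its controls and Gfra1 and Prkcb below theirs with no overlap, whereas Cldn1 overlaps its controls, which themselves lie below the *Tbx1* controls.

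Aqp7 was the gene of the 4 that was higher after loss of *Tbx1*. Its arrays read 7.90, 7.65, 7.82 and 7.64 in *Tbx1 LOF*, against 7.10, 6.99, 7.16 and 7.28 in controls. All mutant arrays were above all control arrays, and the change was 0.62 ± 0.09 (SE), or 1.54-fold. In rescue arrays Aqp7 read 7.64, 7.55, 7.45 and 7.74, against 7.20, 7.39, 7.15 and 7.25 in rescue controls. The rescue arrays were again all higher than their controls, by 0.35 ± 0.09 or 1.27-fold (95% CI 1.12 to 1.45), with p = 0.0286 in a two-sided exact permutation test, the smallest p that 4 arrays against 4 allow. Over all genes, 0.737% had rescue arrays wholly above their controls.

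Gfra1 was lower after loss of *Tbx1*. It read 9.51, 9.78, 9.87 and 9.82 in *Tbx1 LOF* arrays, against 10.32, 10.25, 10.31 and 10.40 in controls. The groups did not overlap, and the change was -0.58 ± 0.09, or 0.671-fold. Rescue arrays read 9.74, 9.87, 9.98 and 9.98, against 10.28, 10.22, 10.14 and 10.07 in rescue controls. They also lay below all of their controls, by -0.29 ± 0.09 or 0.821-fold (95% CI 0.717 to 0.939), with an exact permutation p of 0.0286. Over all genes, 2.24% had rescue arrays wholly below their controls.

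Prkcb was lower in both experiments as well. *Tbx1 LOF* arrays read 8.95, 9.08, 8.78 and 9.10, against 9.51, 9.29, 9.61 and 9.56 in controls. All 4 mutant arrays lay below the controls, and the change was -0.52 ± 0.09, or 0.698-fold. Rescue arrays read 9.17, 9.09, 8.92 and 9.08, against 9.48, 9.64, 9.32 and 9.25 in rescue controls. These groups did not overlap either, with a change of -0.35 ± 0.09 or 0.782-fold (95% CI 0.692 to 0.884) and an exact permutation p of 0.0286.

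Cldn1 followed another course. *Tbx1 LOF* arrays read 7.68, 8.25, 7.82 and 7.89, against 8.69, 8.58, 8.35 and 8.53 in controls. Every mutant array was below every control, by -0.62 ± 0.11 or 0.648-fold, although the second mutant array was closer to the controls than to the other mutant arrays' mean. Rescue arrays read 7.84, 8.20, 8.19 and 8.09, against 8.31, 7.80, 8.003 and 8.03 in rescue controls. The 2 groups overlapped, with a change of 0.05 ± 0.11 (95% CI -0.19 to 0.28) and an exact permutation p of 0.743.

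Across all genes, 6 passed an adjusted p under 0.05 in *Tbx1 LOF* (0.0301% of those tested), and these were the 4 genes with *Tbx1* and *Nrg1*, which is how they were selected. Just inside the threshold stood Cldn1, at an adjusted p of 0.0453 from limma. Just outside it stood Spock1 with a change of -0.31 and an adjusted p of 0.0938, Rtl9 with -0.34 and 0.0999, Pcsk6 with -0.37 and 0.112, and Phlda2 with 0.41 and 0.137. The fit that treats equally numbered arrays as pairs left no gene at this threshold, with adjusted p-values of 0.122 for Aqp7, 0.166 for Prkcb and 0.207 for both Gfra1 and Cldn1.

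No gene passed the threshold in rescue (0.0%), where Aqp7, Gfra1, Prkcb and Cldn1 each had an adjusted p of 0.99993 from limma. In the order of limma's p-values over the 19938 genes, Prkcb ranked 4, Aqp7 ranked 6 and Gfra1 ranked 32, while Cldn1 ranked 11823. At an unadjusted p under 0.05, 0.371% of all genes were higher in rescue, Aqp7 among them, and 0.898% were lower, Gfra1 and Prkcb among them. The *Tbx1* gene, deleted in the AHF by the genotype, ranked 14 with the same adjusted p.

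**Figure D2:**
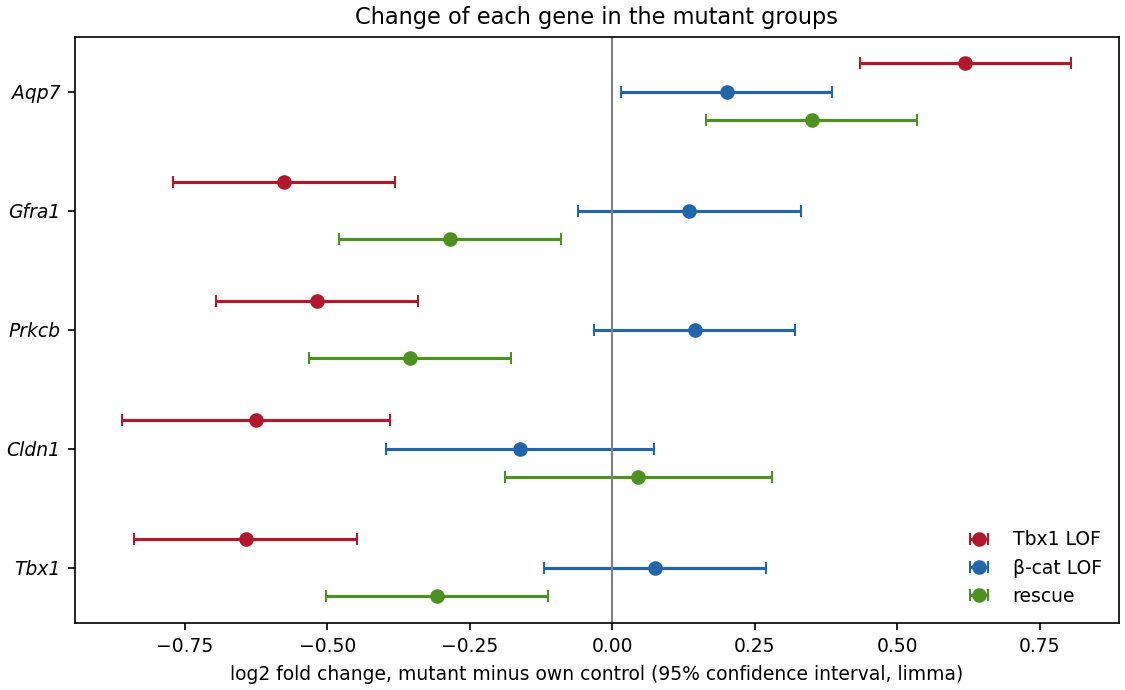
Log2 fold change (x axis) of each gene (y axis) in *Tbx1 LOF*, *β-cat LOF* and rescue, each against its own controls, with 95% confidence intervals from limma. The rescue changes of Aqp7, Gfra1, Prkcb and *Tbx1* lie between 0 and their *Tbx1 LOF* changes, and the rescue change of Cldn1 lies at 0.05.

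How far the rescue kept each change was expressed as the rescue change in percent of the *Tbx1 LOF* change, with Fieller's 95% interval. Prkcb kept 68.5% (32.6% to 122%), Aqp7 kept 56.5% (25.5% to 98.5%) and Gfra1 kept 49.5% (15.3% to 96.6%). The intervals of these 3 genes overlap widely, so no order among them can be read. Cldn1 kept -7.29% (-49.1% to 32.1%). The denominators come from the experiment that chose the genes, so the percentages are a description. *Tbx1* itself, whose lower level is given by the genotype, kept 47.9%, a value within the intervals of Aqp7, Gfra1 and Prkcb and above that of Cldn1.

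As a difference of the changes, rescue minus *Tbx1 LOF*, Cldn1 differed by 0.67 (95% CI 0.34 to 1.002), Gfra1 by 0.29 (0.01 to 0.57), Prkcb by 0.16 (-0.09 to 0.41) and Aqp7 by -0.27 (-0.53 to -0.01). These differences hold the values that chose the genes and are given as sizes only. With the replicate block, the intervals of Gfra1 and Aqp7 included 0. The absolute levels gave a second view. Rescue arrays lay within the range of the *Tbx1 LOF* arrays in 2 of 4 for Aqp7, 2 of 4 for Gfra1, 3 of 4 for Prkcb and 4 of 4 for Cldn1. No rescue array of any of the 4 genes lay within the range of the *Tbx1* controls. Of the rescue controls themselves, 3 of 4 lay within that range for Aqp7, 1 of 4 for Gfra1, 2 of 4 for Prkcb and 0 of 4 for Cldn1.

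For Cldn1 the rescue arrays thus lay in the range of the *Tbx1 LOF* arrays, and the rescue controls were low as well. Cldn1 averaged 8.03 ± 0.21 in rescue controls, 8.25 ± 0.14 in *β-cat* controls and 8.54 ± 0.14 in *Tbx1* controls (SD, n = 4 each). The 4 rescue controls were all lower than the 4 *Tbx1* controls, by -0.50 ± 0.11 (SE). The *Tbx1* controls took part in choosing the genes, so this difference is a description with no test. Of the rescue controls, 3 of 4 lay within the range of the *Tbx1 LOF* arrays. The *β-cat* controls differed from the *Tbx1* controls by -0.29. Between the control groups whose means the choice did not use, rescue minus *β-cat*, the difference was -0.21 with an adjusted p of 0.383 from limma. Over all genes, 0.0652% passed an adjusted p under 0.05. Experiment, strain and control genotype cannot be told apart in these differences.

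The other 3 genes stood closer together in the controls. Rescue controls differed from *Tbx1* controls by 0.11 for Aqp7, -0.14 for Gfra1 and -0.07 for Prkcb, each with overlapping arrays. Aqp7 was 0.28 higher in *β-cat* controls than in *Tbx1* controls, the largest control difference of these 3 genes, and the arrays overlapped. In the order of the 6 group means, neighbouring groups of Aqp7, Gfra1 and Cldn1 had overlapping arrays throughout. For Prkcb the rescue and *Tbx1 LOF* groups lay together, at 9.07 ± 0.11 and 8.98 ± 0.15, and the rescue group was separate from the next group above it, the rescue controls at 9.42 ± 0.18 (SD, n = 4 each).

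In *β-cat LOF* none of the 4 genes passed the adjusted threshold in limma, and neither did any other gene (0.0%). Aqp7 read 7.58, 7.60, 7.57 and 7.71 in *β-cat LOF* arrays, against 7.58, 7.58, 7.36 and 7.14 in controls. The mutant arrays were alike and the controls spread widely, with a change of 0.20 ± 0.09, an unadjusted limma p of 0.0353 and an exact permutation p of 0.114. It was 0.01 in arrays 1 and 2 and 0.39 in arrays 3 and 4. The unadjusted call was lost without mutant array 4 (a change of 0.17), control array 3 (a change of 0.18) or control array 4 (a change of 0.11). At an unadjusted p under 0.05, 2.83% of all genes were higher and 2.88% lower. Prkcb read 9.55, 9.62, 9.51 and 9.61 in *β-cat LOF* arrays, against 9.499, 9.31, 9.47 and 9.44 in controls. Its mutant arrays were all just above the controls, by 0.14 ± 0.09 (exact permutation p = 0.0286), where 2.06% of all genes had mutant arrays wholly above their controls, and its adjusted p was 0.860.

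Gfra1 read 10.26, 10.58, 10.17 and 10.15 in *β-cat LOF* arrays, against 10.24, 9.93, 10.15 and 10.29 in controls. The second mutant array was high and the second control low, and the groups overlapped, with a change of 0.14 ± 0.09 (95% CI -0.06 to 0.33) and an exact permutation p of 0.429. The sign turned between arrays 1 and 2, at 0.33, and arrays 3 and 4, at -0.06, and the change was 0.04 without mutant array 2 and 0.06 without control array 2. Cldn1 read 8.07, 7.98, 8.19 and 8.09 in *β-cat LOF* arrays, against 8.20, 8.12, 8.44 and 8.23 in controls. Its mutant arrays were lower by -0.16 ± 0.11 (95% CI -0.40 to 0.07; exact permutation p = 0.0571), with overlap. Over all 4 arrays, Gfra1 and Prkcb had estimates above 0 after loss of β-catenin, with intervals that include 0, and below 0 after loss of *Tbx1*. Those of Aqp7 and Cldn1 had the same sign in both.

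The spread between arrays of a group differed among the 4 genes. The residual SD was 0.172 for Cldn1, 0.140 for Gfra1, 0.132 for Aqp7 and 0.125 for Prkcb, beside a median of 0.112 over all genes. Arrays numbered 1 and 2 and arrays numbered 3 and 4 were also compared apart. In rescue, the change of Gfra1 was -0.45 in arrays 1 and 2 and -0.12 in arrays 3 and 4, so more of its change came from the first pair. The same pairs gave 0.30 and 0.40 for Aqp7, -0.43 and -0.28 for Prkcb, and -0.03 and 0.12 for Cldn1. The rescue change of *Tbx1* itself was -0.45 in arrays 1 and 2 and -0.17 in arrays 3 and 4, close to the values of Gfra1.

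Of the 4 genes, Gfra1 resembled *Tbx1* most closely over the arrays. With each array taken relative to the mean of its own controls, Pearson's r between Gfra1 and *Tbx1* was 0.954 over the 24 arrays, the highest of any gene with Gfra1. Part of this r is the shared difference between mutants and controls that chose both genes. Over the 16 arrays outside the *Tbx1* experiment r was 0.883, and over the deviations of the 24 arrays from their group means it was 0.788. The next most alike to Gfra1 were Pcsk6 (r = 0.909 over 24 arrays and 0.840 over 16), which encodes a proprotein convertase, Spock1 (0.895 and 0.913), which encodes a secreted proteoglycan, and Rxfp2 (0.885 and 0.851), which encodes a relaxin family receptor. Prkcb ranked 9 in likeness to Gfra1, with 0.847 and 0.772. These values have no test, and arrays of an experiment share its tissue pools and hybridizations.

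Prkcb shared several of these genes. Its most alike gene was Pcsk6 (r = 0.918 over 24 arrays and 0.917 over 16), followed by *Tbx1* (0.880 and 0.870), Sel1l3 (0.874 and 0.857) and Atp2a3 (0.871 and 0.823), which encodes a calcium pump of the endoplasmic reticulum. Within groups the r of Prkcb with *Tbx1* was lower, at 0.447, and with Gfra1 it was 0.2496. The changes of Pcsk6 were -0.37 in *Tbx1 LOF* and -0.23 in rescue, and those of Atp2a3 were -0.38 and -0.26. Likeness over these same arrays picked both genes, so the direction they share with Prkcb is part of that choice.

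Cldn1 resembled a different set of genes. Lrrn1 (r = 0.879 over 24 arrays and 0.628 over 16), Sox9 (0.873 and 0.709), Heyl (0.844 and 0.600) and Susd2 (0.838 and 0.605) were the most alike. Sox9 is a transcription factor of neural crest and cartilage progenitors, and Heyl is a Notch target. The r of Cldn1 with *Tbx1* was 0.611 over 24 arrays but -0.209 over the 16 arrays outside the *Tbx1* experiment. The likeness of Cldn1 to *Tbx1* thus lay within the arrays that selected it.

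The genes most like Aqp7 were Podxl (r = 0.828 over 24 arrays and 0.593 over 16), Krt8 (0.813 and 0.592), Plekha6 (0.746 and 0.685) and Gsn (0.723 and 0.386). Podxl encodes podocalyxin, a sialomucin of apical membranes, Krt8 a keratin of simple epithelia, and Gsn the actin-severing protein gelsolin. Krt8 was at 0.27 in *Tbx1 LOF* and 0.04 in rescue, and Podxl at 0.28 and 0.09, so the rescue estimate of each was smaller than that of Aqp7, at 0.35, a difference that was not tested. The r of Aqp7 with *Tbx1* was -0.778 over 24 arrays, -0.539 over 16 arrays and -0.213 within groups.

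**Figure D3:**
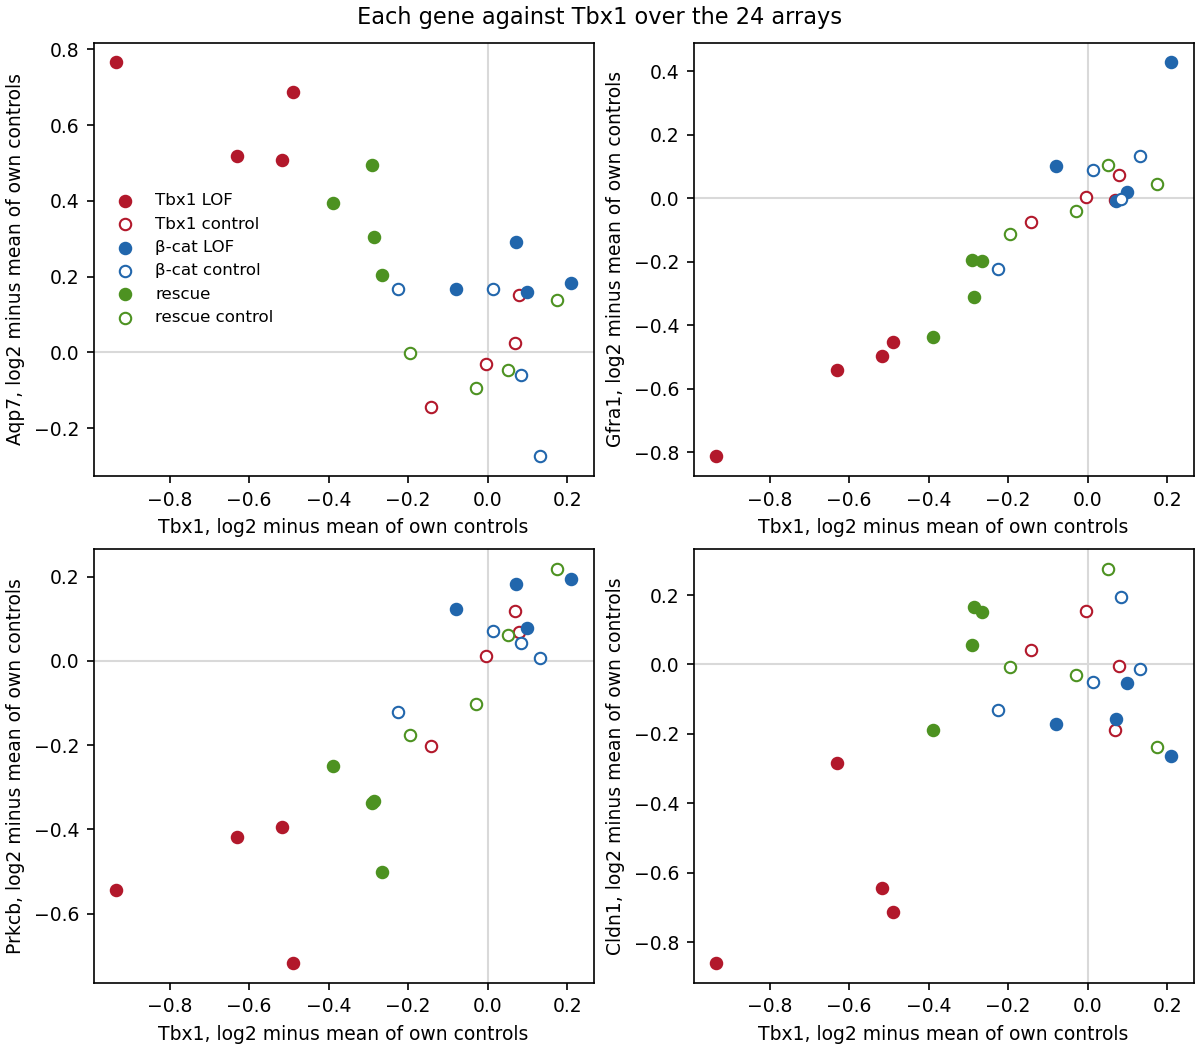
Each gene (y axis) against *Tbx1* (x axis) in the 24 arrays, both as log2 values minus the mean of the array's own controls, with mutant arrays filled and controls open. Gfra1 follows *Tbx1* (r = 0.954), and the rescue arrays of Cldn1 lie near 0 although their *Tbx1* values are below 0.

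The other members of the 4 families were read in the same fit, where unadjusted p-values are limma's. At an unadjusted p under 0.05, 2.17% of all genes were higher and 1.95% lower in *Tbx1 LOF*. Of the 11 other aquaporins, none passed the adjusted threshold in any of the 3 mutants, and the list median was 0.04 in *Tbx1 LOF* and -0.03 in rescue, beside -0.01 and -0.02 over all genes. The other glycerol channels Aqp3 and Aqp9 had changes of 0.10 and 0.05 in *Tbx1 LOF*, and 0.06 and -0.13 in rescue. Aqp11 was the only one of the list at an unadjusted p under 0.05 in any mutant, with -0.21 ± 0.07 (SE) in *β-cat LOF*. Of 18 measured genes of glycerol and lipid handling, 0 reached an unadjusted p of 0.05 in either *Tbx1 LOF* or rescue. In *β-cat LOF* there were 2, the fatty acid binding protein gene Fabp3 at -0.75 ± 0.22 and the lipase gene Lpl at -0.35 ± 0.14.

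Among 12 other GDNF ligands, receptors and co-receptors, 2 were lower in *Tbx1 LOF* at an unadjusted p under 0.05, 2 were higher in *β-cat LOF*, and none passed the adjusted threshold. Ret, the signalling receptor that Gfra1 serves, was among them in both. Its difference was -0.30 in *Tbx1 LOF*, 0.25 in *β-cat LOF* and -0.16 in rescue (SE 0.11 each), the same signs as Gfra1. The others were the syndecan Sdc3, at -0.15 ± 0.05 in *Tbx1 LOF*, and the ligand Artn, at 0.15 ± 0.07 in *β-cat LOF*. The ligand Gdnf itself was at 0.04 in *Tbx1 LOF* and -0.05 in rescue, and the sister co-receptor Gfra2 at -0.06 and 0.04. Of 16 measured genes downstream of Ret, the adaptor gene Dok4 was at 0.43 ± 0.15 and the chemokine receptor gene Cxcr4 at -0.25 ± 0.10 in *Tbx1 LOF*. In rescue 0 of the 16 reached an unadjusted p under 0.05, and the list median was -0.08.

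In the protein kinase C family, 12 genes other than Prkcb were measured and none passed the adjusted threshold. Prkd1, a protein kinase D, was the 1 gene of the list below an unadjusted p of 0.05 in *Tbx1 LOF*, at -0.28 ± 0.08, and stood at -0.13 ± 0.08 in rescue. Prkca, another conventional isoform, was the 1 such gene in *β-cat LOF*, at -0.37 ± 0.11, and stood at 0.13 in *Tbx1 LOF* and -0.02 in rescue. Prkcd was within 0.04 of 0 in each of the 3. Among 29 genes of protein kinase C activation and substrates, the phospholipase gene Plcg2 was at -0.24 in *Tbx1 LOF*, 0.21 in *β-cat LOF* and -0.23 in rescue (SE 0.09 each), past an unadjusted p of 0.05 in all 3 and with the signs of Prkcb in each. None of the 29 passed the adjusted threshold. At an unadjusted p under 0.05, 1 was higher and 2 lower in *Tbx1 LOF*, 1 higher and 1 lower in *β-cat LOF*, and 1 lower in rescue. The list medians were -0.013, 0.005 and -0.008 in this order, beside -0.014, 0.015 and -0.015 over all genes. The adducin gene Add3 was at -0.37 ± 0.10 in *β-cat LOF*. In *Tbx1 LOF* the adducin gene Add2 was at 0.21 and the neurogranin gene Nrgn at -0.21 (SE 0.10 each).

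Of 22 other claudins, none passed the adjusted threshold, and the list median was -0.03 in *Tbx1 LOF*, 0.10 in *β-cat LOF* and -0.06 in rescue. At an unadjusted p under 0.05 stood Cldn8 (-0.22 ± 0.10) and Cldn24 (-0.20 ± 0.07) in *Tbx1 LOF*, Cldn10 (0.17 ± 0.08) and Cldn19 (0.21 ± 0.10) in *β-cat LOF*, and Cldn4 (-0.16 ± 0.07) in rescue. Estimates were above 0 for 19 of the 22 in *β-cat LOF*, and below 0 for 15 in *Tbx1 LOF* and 18 in rescue. The medians over all genes were 0.01, -0.01 and -0.02 in this order. The epithelial claudins Cldn3, Cldn6 and Cldn7 had changes of -0.02, -0.04 and 0.00 in *Tbx1 LOF* and of -0.16, -0.09 and -0.14 in rescue, the endothelial Cldn5 had 0.01 and 0.06, and Cldn12 had -0.04 and -0.05. Among 24 other tight junction genes, 3 were higher in *Tbx1 LOF* at an unadjusted p under 0.05. They were the paracingulin gene Cgnl1 at 0.27 ± 0.11, the polarity gene Pard6b at 0.25 ± 0.07 and the scaffold gene Magi1 at 0.17 ± 0.07. In *β-cat LOF* 2 were lower, Cgnl1 at -0.29 ± 0.11 and the scaffold gene Magi3 at -0.25 ± 0.09. In rescue 0 reached an unadjusted p of 0.05, and none passed the adjusted threshold in any mutant.

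**Figure D4:**
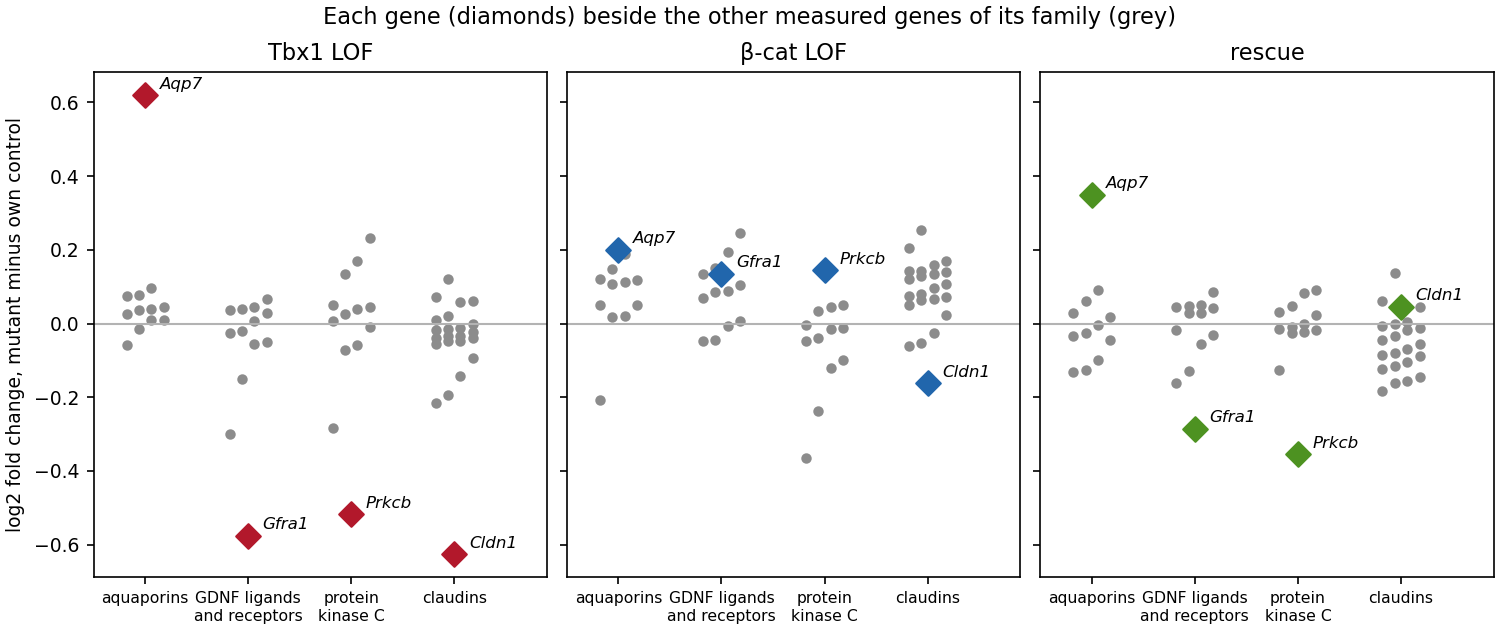
Log2 fold change (y axis) of Aqp7, Gfra1, Prkcb and Cldn1 (diamonds) beside the other measured members of their families (grey points; x axis) in *Tbx1 LOF*, *β-cat LOF* and rescue. In *Tbx1 LOF*, the experiment that selected them, the 4 genes lie outside the range of their families. In rescue this holds for Aqp7, Gfra1 and Prkcb, and Cldn1 lies among the other claudins.

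Cell type markers were read beside these results. Isl1, a marker of the heart field, read 10.47 to 10.93 over the 24 arrays, and the epithelial markers Epcam and Cdh1 read 9.89 to 10.80 and 10.46 to 10.95. Ptprc, the pan-leukocyte marker, read 6.39 to 6.71. Levels of different probe sets cannot be set against each other, and the file gives no detection calls. The mean of 14 epithelial markers, of which Krt8 is one, was 9.86 to 10.09 in *Tbx1 LOF* arrays, against 9.85 to 9.98 in controls, and 9.87 to 9.93 in rescue arrays, against 9.92 to 10.03 in rescue controls. Its changes were 0.03 and -0.05, with exact permutation p-values of 0.714 and 0.114. Its members differed in *Tbx1 LOF*, with Krt8 at 0.27 and Krt18 at 0.16, against Esrp1 at -0.13, Tfap2a at -0.13 and Epcam at -0.12. The mean of 16 anterior heart field and pharyngeal mesoderm markers, Isl1 among them, changed by -0.01 in *Tbx1 LOF* and -0.04 in rescue (exact permutation p = 0.8 and 0.371). At an unadjusted limma p under 0.05, 3 were higher and 5 lower in *Tbx1 LOF*. In rescue 1 was lower, Fgf10, at -0.47 ± 0.11 (SE), beside -0.39 ± 0.11 in *Tbx1 LOF*. None passed the adjusted threshold in either.

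Heart muscle markers differed in both single mutants. The mean of 16 such genes was 10.62 to 10.95 in *Tbx1 LOF* arrays, against 9.69 to 10.26 in controls (change 0.77, exact permutation p = 0.0286). It was 9.91 to 10.45 in *β-cat LOF* arrays, against 10.47 to 12.60 in controls (-1.14, p = 0.0286 by the exact test), and 9.84 to 10.35 in rescue arrays, against 9.54 to 10.42 in rescue controls (0.28, exact p = 0.314). In rescue the groups overlapped for these markers, whose rescue controls had an SD of 0.41, and not for Aqp7, Gfra1 and Prkcb. That contrast was not tested. At an unadjusted p under 0.05, *Tbx1 LOF* had 12 of these 16 genes higher and *β-cat LOF* had 15 lower. The mean of 10 liver, gut and mesothelium markers was 8.20 to 9.01 in *Tbx1 LOF* arrays, against 7.91 to 8.48 in controls (0.52, exact permutation p = 0.0857), with 5 of 10 higher at an unadjusted p under 0.05, and differed by 0.03 in rescue. That of 9 posterior heart field markers was 10.99 to 11.62 in *Tbx1 LOF* arrays, against 10.65 to 11.17 in controls (0.40, exact permutation p = 0.0857), with 6 of 9 higher at that threshold. It differed by -0.38 in *β-cat LOF* and by 0.21 in rescue (exact permutation p = 0.143 and 0.0857). Neural tube markers (15 genes) ranged from 8.05 to 9.02 in *Tbx1 LOF* arrays, against 8.51 to 8.91 in controls (-0.20, exact permutation p = 0.371). In *β-cat LOF* they were 8.48 to 8.63, against 8.26 to 8.41 in controls, with no overlap (0.20, exact permutation p = 0.0286), and in rescue the difference was 0.17 (exact permutation p = 0.2). The mean of the neural crest markers differed from controls by -0.11 in *Tbx1 LOF* (exact permutation p = 0.0571) and by -0.05 in rescue (p = 0.0286). The part of these cell types in the changes of the 4 genes was not tested.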

How the data were processed

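The expression values of AHF tissue are from 24 Affymetrix Mouse Gene ST arrays in 6 groups of 4. According to the methods, some arrays judged to be of poor quality were left out, and 4 per genotype were kept to balance controls and mutants. The deposited values are log2 intensities that the authors made with oligo's RMA (background correction, quantile normalization, summarization per probe set). No source used here gives the version of oligo. The methods add ComBat and a batch block. No source used here ties arrays to batches or says whether ComBat is in the values, so neither step was repeated. The file holds no detection calls or depth, so the number of arrays limits the precision.

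Of 35556 probe sets, the 21789 with 1 gene symbol were averaged per gene into 19938 genes, with no filter on low values. Changes were fitted by limma 3.58.1 (R 4.3.3) on all 24 arrays with a mean per group, and p-values were adjusted by Benjamini-Hochberg over all genes. The script was tested on simulated data. Values of single genes were compared by two-sided exact permutation tests. The labels do not say that arrays are separate litters, so p-values measure only the spread between arrays. The genes and lists were chosen with earlier results of these data known. Named genes are the 4 genes, those next to the threshold, list members at an unadjusted p under 0.05 (up to 4 per list), close family members, and the 4 genes most alike in Pearson's r.

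Mutant and control arrays carry the same replicate numbers. In the *Tbx1* experiment the deviations of equally numbered arrays had r of 0.157 to 0.494. For mutant arrays 1, 2 and 3 a control of another number had a higher r (0.403, 0.407 and 0.431). The data thus do not settle a pairing, and the labels state none. In the *β-cat* and rescue experiments r was 0.0889 to 0.479 and -0.0638 to 0.256. There the own number had the highest r for *β-cat* arrays 3 and 4 and rescue array 3. The numbers were not taken as pairs in the main fit. Alternatives were a replicate block, only the arrays of each experiment, arrays 1 and 2 against 3 and 4, other normalizations, filters and variance models, array weights, and leaving out each array.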

Additional observations from a re-analysis of the deposited data

How the results depend on the processing

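Under 11 alternatives and the omission of single arrays, the rescue changes kept their direction for Aqp7 (0.30 to 0.40), Gfra1 (-0.45 to -0.12) and Prkcb (-0.43 to -0.28), and none had an adjusted p under 0.05. Cldn1 ranged from -0.03 to 0.14 in rescue. With 1 array left out at a time, the rescue changes were 0.30 to 0.40 for Aqp7, -0.32 to -0.23 for Gfra1, -0.41 to -0.28 for Prkcb and -0.03 to 0.14 for Cldn1. The *Tbx1 LOF* changes then were 0.57 to 0.67, -0.62 to -0.50, -0.59 to -0.45 and -0.74 to -0.55 for the genes in this order. Split by array number, which is not a labelled batch, the *Tbx1 LOF* change of Prkcb was -0.39 in arrays 1 and 2 and -0.65 in arrays 3 and 4. The difference of its changes, rescue minus *Tbx1 LOF*, was -0.044 in arrays 1 and 2, a turned sign, and 0.37 in arrays 3 and 4. For Aqp7 this difference was -0.43 and -0.11. The cause was not tested.

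The number of genes at an adjusted p under 0.05 in *Tbx1 LOF* was 6 and depended on the setting. It was 0 with the replicate block, 0 with only the 8 arrays of that experiment, 10 with arrays 1 and 2 against 3 and 4 as a term, 5 in arrays 1 and 2, 0 in arrays 3 and 4, 4 after quantile normalization, and 0 to 32 with 1 array left out. It was 0 without *Tbx1 LOF* array 1, 32 without *Tbx1 LOF* array 2, 2 without control array 1, and 1 without control array 3 or 4. In rescue it was 0, or 1 with array weights and 1 in arrays 3 and 4. In *β-cat LOF* it was 0, but 43 in arrays 1 and 2, 42 without control array 4, 2 with the replicate block, and 1 after quantile normalization or without control array 3. With the replicate block, the unadjusted p in rescue was 0.00206 for Aqp7, 0.0231 for Gfra1, 0.00116 for Prkcb and 0.705 for Cldn1 (limma). The block moved none of the rescue and *β-cat LOF* changes of the 4 genes across an adjusted or unadjusted threshold of 0.05. It was not read for the list genes. With 1 array left out, the *β-cat LOF* changes were 0.11 to 0.26 for Aqp7, 0.04 to 0.18 for Gfra1, 0.10 to 0.17 for Prkcb and -0.21 to -0.10 for Cldn1.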

Other observations

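*Nrg1*, a ligand of ErbB receptors selected by the same threshold, averaged 8.997 ± 0.06 in rescue arrays and 9.20 ± 0.08 in rescue controls (SD, n = 4 each). Its arrays did not overlap there, with a change of -0.21 (exact permutation p = 0.0286, adjusted p = 0.99993 from limma), beside -0.40 in *Tbx1 LOF*. Among the genes selected on the *Tbx1 LOF* arrays, Aqp7, Gfra1, Prkcb and *Nrg1* kept their sign with arrays apart in rescue, and Cldn1 did not. Over all genes, 0.737% had rescue arrays wholly above their controls and 2.24% wholly below, and no gene passed the adjusted threshold there.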
